A study of Mus musculus with 18 samples.

Results

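The comparison set 3 untreated libraries of the HDAC1-Y48E line against 3 untreated libraries of the HDAC1-E63R line, 6 of the 18 libraries in the series, and its members were chosen by the line and treatment in the sample titles. Both lines are E14TG2a mouse embryonic stem cells (ESCs) in which the endogenous Hdac1 and Hdac2 genes carry lox sites and can be deleted by 4-hydroxytamoxifen (OHT). Each line also carries a stably integrated HDAC1 transgene with a C-terminal Flag tag, with the substitution Y48E in one line and E63R in the other. The remaining libraries came from a line with the wild-type transgene (HDAC1-WT) and from the 3 lines collected 5 days after the start of treatment with OHT at 1 µM. Untreated cells kept endogenous Hdac1 and Hdac2, so the 2 groups compared here had the mutant protein in addition to the normal enzymes. Cells were grown on gelatine in serum and leukaemia inhibitory factor (LIF), and total RNA was sequenced. Each mutant was represented by 1 line, and neither the labels nor the methods say whether a line was 1 clone, so the mutation and any other property of the line cannot be told apart. The study calls its RNA-seq libraries biological replicates, and the labels do not say whether those of a group came from separate cultures. The p-values measure the spread between libraries within groups, estimated over all 18 libraries, and not that of the 6 compared libraries alone.

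HDAC1 is a histone deacetylase, an enzyme that removes acetyl groups from histone tails, and it works inside several large corepressor complexes, such as NuRD and SIN3, that bring it to chromatin. Residues on the surface of HDAC1 touch the scaffold proteins of these complexes, and substitutions there, such as the pair studied here, were designed to disturb that binding. The comparison asks how gene expression differed between these lines while the endogenous enzymes were still present.

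The 3 Y48E libraries held between 9117826 and 9667376 counts on genes and the 3 E63R libraries between 9075739 and 11280252. E63R replicate 3 stood apart from the other libraries of its line. Its scaling factor was 0.814, against 0.955 to 0.977 in the other 5 libraries, and 42.9% of its entries fell on no feature, against at least 44.8% in the other 17 libraries of the series. The chi-square of the counts over genes, per degree of freedom, was 55.1 and 61.1 between this library and the other 2 E63R libraries, against 4.77 to 5.79 in the other 4 pairs. Compared with the mean of those 2 libraries, its genes with the shortest exon sequence (up to 2357 bases, 2187 genes) lay 0.62 higher on the log2 scale in the median, and the 2187 with the longest (from 7631 bases) were at -0.58 (the plot of deviations by exon length). In the 3 Y48E libraries the same medians stayed between -0.05 and 0.06. Named genes whose call rests on this library are therefore given with and without it, and its part in the counts was measured by leaving it out. Other values include it unless stated.

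**Figure D1:**
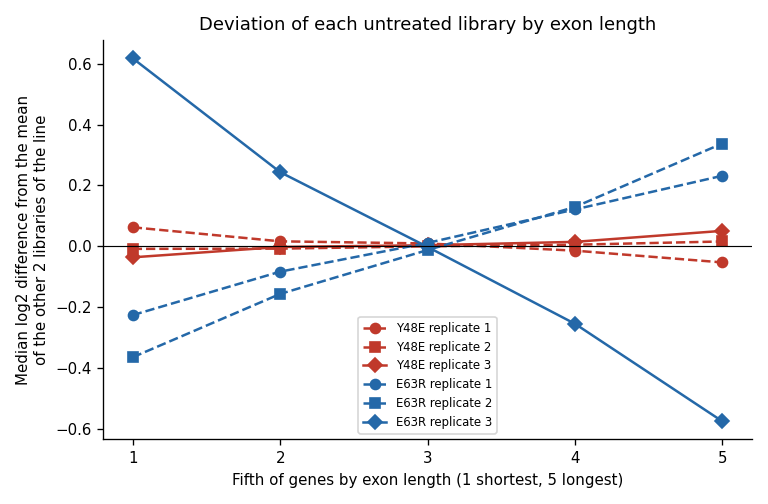
Median log2 difference of each untreated library from the mean of the other 2 libraries of its line (vertical axis), for genes with a mean of at least 8 CPM in 5 groups of nearly equal size by exon length (horizontal axis, 1 shortest, 5 longest). E63R replicate 3 runs from 0.62 in the shortest group to -0.58 in the longest, and the Y48E libraries stay between -0.05 and 0.06.

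The labelled cell type was checked on 8 defining ESC markers. All were abundant in the 6 libraries, and none was called different between the lines. The core pluripotency factor Pou5f1 had 1066 ± 42.1 CPM (counts per 1e6 scaled counts; SD, n = 3) in Y48E and 1194 ± 329.7 CPM (SD, n = 3) in E63R. Nanog, another factor of the core network, had 622.5 ± 29.05 CPM in Y48E and 470.4 ± 73.9 CPM in E63R, a log2 fold change (Y48E over E63R throughout) of 0.40 with a standard error of 0.10 and an edgeR adjusted p of 0.0160, which missed the limit. Without E63R replicate 3 the log2 fold change of Nanog was 0.54, with an edgeR adjusted p of 2.51e-09, still less than 2-fold. Esrrb had 558 ± 13.2 CPM in Y48E and 498 ± 88.5 CPM in E63R. Of 22 markers of fibroblasts, endothelium, blood, primitive endoderm and trophoblast, the blood markers Ptprc, Tyrobp and Hbb-bs, the endothelial marker Emcn and the trophoblast marker Tpbpa had 0 counts in all 6 libraries. The highest of the others were Thy1, between 7.63 and 21.4 unscaled CPM, and Csf1r, between 15.1 and 17.1. In a bulk sample, fewer cells of a type and less RNA per cell cannot be told apart.

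Hdac1 and Hdac2, the genes under study, did not separate the lines. Hdac1 had 97.9, 104 and 102 CPM in the Y48E libraries and 110.2, 94.9 and 110.1 CPM in the E63R libraries. The groups overlapped, with a log2 fold change of -0.06 ± 0.09 (SE) and an adjusted p of 0.800. Hdac2 had 151 ± 2.41 CPM in Y48E and 177 ± 29.4 CPM in E63R, a log2 fold change of -0.22 ± 0.11 (SE) with an adjusted p of 0.297. The untreated HDAC1-WT line had 205 CPM of Hdac1 and 195 CPM of Hdac2 in the mean. Whether reads of the transgene were counted under Hdac1 was not tested, and 35.3% of the 50-base windows of Hdac1 transcripts also occur in other genes, so the level of Hdac1 is uncertain.

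Of 18791 genes tested, 80 were higher in the Y48E line (0.426% of the tested genes) and 103 were lower (0.548%), with calls made where edgeR's adjusted p was below 0.01 and the levels differed over 2-fold. The libraries of the 2 lines did not overlap for any of the 80 higher genes and for 102 of the 103 lower genes, and they did not overlap for 3318 of all 18791 tested genes. Without E63R replicate 3, 121 genes were higher (0.62% of 19503 tested) and 127 lower (0.651%), and 72 of the 80 and 88 of the 103 genes were again called. A fit of the 6 libraries alone called 17 higher and 30 lower genes, in which Meg3, Rian, H19, Egr1, Xlr3a, Ash2l and Hpf1 were called, and Mirg, Xlr3c, Otx2, Atf3, Bdkrb2, Nek1, Cd37, Usp17le and the named Zscan4 and basement membrane genes were not. The calls were concentrated in few places. Chromosome 8 held 65 of the 103 lower genes among its 1027 tested genes. Chromosomes 7, X and 12 held 18, 16 and 6 of the 80 higher genes among 1526, 678 and 697 tested genes, respectively. Chromosome 18 held 4 among 423, a share like that of chromosome 12. Where neighbouring genes with a mean of at least 8 CPM were followed along each chromosome, 9 runs of 3 or more consecutive genes beyond a log2 fold change of 0.75 in one direction were found among 10911 genes. This rule was set after the values were seen, so the runs are a description and have no test.

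The 2 genes with the smallest p, Meg3 and Rian, are imprinted, that is, expressed from only the maternal or the paternal copy. The noncoding RNA Meg3 (chr12:109541001-109571726, mm10), made from the maternal copy of the Dlk1 to Dio3 domain, had 271, 236 and 234 CPM in the Y48E libraries. In the E63R libraries it had 3.70, 7.23 and 6.52 CPM, and in the untreated WT libraries 78.5, 94.0 and 110.4 CPM. Every Y48E library was above every WT library, and every E63R library was below them. The log2 fold change between the mutant lines was 5.43 ± 0.19 (SE), with an adjusted p of 2.49e-14, and 5.53 without E63R replicate 3. Rian, a noncoding RNA of the same domain that hosts small nucleolar RNAs, had 242.5, 243 and 269 CPM in Y48E and 7.12, 7.45 and 3.77 CPM in E63R, a log2 fold change of 5.35 ± 0.20 (SE). Mirg, the microRNA host at the far end, had 8.18 ± 1.67 CPM in Y48E and at most 0.462 CPM in an E63R library, with counts in only 1 of the 3. Dlk1, the paternally expressed protein gene at the other end, had 11.3 CPM in Y48E, 5.51 CPM in E63R and 5.89 CPM in WT, and its log2 fold change of 1.03 had an adjusted p of 0.0989. Meg3 and Rian differed by 43.0- and 40.8-fold, while Dlk1 did not pass the test. For Mirg the fitted log2 fold change of 5.46 rests on the counts of E63R replicate 1. It was 4.95 without E63R replicate 3, and without replicate 1 no E63R count was left, so that no fold can be given. Part of Meg3, 6.79% of its exons, lies opposite the gene model Gm26906, and reads of the 2 cannot be told apart without strand.

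H19, a maternally expressed noncoding RNA on chromosome 7 (chr7:142575529-142578143), had 229, 187 and 213 CPM in Y48E and 10.6, 11.2 and 6.98 CPM in E63R. The untreated WT line had 12.7 ± 4.11 CPM (SD, n = 3). Here the E63R and WT libraries overlapped and the Y48E libraries stood above both, with a log2 fold change between the mutant lines of 4.44 ± 0.18 (SE) and an adjusted p of 1.24e-13. Its neighbour Igf2, the paternally expressed insulin-like growth factor 2, was named after its values were seen. It had 0 counts in all 3 Y48E libraries and 31, 25 and 3 counts in the E63R libraries. Against a floor of 3 counts over the group, Igf2 was at least 18.8-fold lower in Y48E, and the adjusted p was 0.00417. Cdkn1c, a maternally expressed inhibitor of cyclin-dependent kinases, had 12.4, 14.5 and 13.4 CPM in Y48E and 46.0, 53.5 and 68.9 CPM in E63R. Its level in the WT line was 38.5 CPM, and the log2 fold change between the mutants was -2.06 ± 0.16 (SE), with an adjusted p of 1.30e-08. Reads of Cdkn1c share 30.7% of its exon length with the opposite gene model Gm44732. Phlda2, another maternally expressed gene next to it that restrains placental growth, had 41.9 ± 4.71 CPM in Y48E and 100.1 ± 36.6 CPM in E63R, a log2 fold change of -1.25 that was -0.92, under the 2-fold limit, without E63R replicate 3. In all, 5 of the 44 tested imprinted genes were higher (H19, Meg3, Rian, Mirg and Peg3) and 3 lower (Igf2, Cdkn1c and Phlda2), with a list median of 0.06 against 0 over all tested genes. Of all tested genes, 0.426% were called higher and 0.548% lower.

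The bases before the start of the domain's 2 main noncoding RNAs are shown because they are the genes with the smallest p of the comparison. The sequences are from RefSeq (GRCm38.p6), 250 bases that end just before the annotated start, with CG dinucleotides in capitals. Meg3 lies at chr12:109540746-109540995, plus strand, and Rian at chr12:109603695-109603944, plus strand.
Meg3: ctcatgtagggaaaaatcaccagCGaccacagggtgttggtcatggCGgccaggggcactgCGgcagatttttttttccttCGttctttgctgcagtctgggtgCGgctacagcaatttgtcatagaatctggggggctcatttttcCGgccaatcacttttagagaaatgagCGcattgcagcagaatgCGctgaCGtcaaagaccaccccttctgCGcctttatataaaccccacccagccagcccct
Rian: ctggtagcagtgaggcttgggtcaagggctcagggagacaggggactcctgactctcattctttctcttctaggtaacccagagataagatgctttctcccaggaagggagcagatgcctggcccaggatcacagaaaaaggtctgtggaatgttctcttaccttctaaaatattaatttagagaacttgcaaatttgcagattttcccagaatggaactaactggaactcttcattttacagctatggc
The stretch before Meg3 held 10 CG, as many as or more than 34.6% of the 12440 tested genes with a promoter in the table, whereas that before Rian held 0 CG. Only 1.45% of these 12440 genes had no CG in this window.

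A group of X-linked genes was also higher in Y48E. The Xlr3, Xlr4 and Xlr5 genes are a multigene family on the X chromosome whose first described members were regulated in lymphocytes. Of 9 tested members, 8 were higher in Y48E and none was lower, with log2 fold changes of the 9 between 2.91 and 7.61. Their summed level was between 155 and 179 CPM in the Y48E libraries, between 4.29 and 10.9 CPM in the E63R libraries and between 42.0 and 45.6 CPM in the untreated WT libraries. The WT level lay between the 2 mutant lines, as for Meg3. Xlr3a (chrX:73086293-73097095) had 86.7, 69.2 and 76.1 CPM in Y48E and 3.23, 1.36 and 5.49 CPM in E63R, a log2 fold change of 4.52 ± 0.27 (SE) with an adjusted p of 1.16e-10. For Xlr3b the log2 fold change was 4.68 ± 0.29 (SE), for Xlr3c 2.91 ± 0.52, for Xlr4a 5.44 ± 0.53 and for Xlr5a 5.45 ± 0.42. Without E63R replicate 3 the value was 4.73 for Xlr3c, 6.42 for Xlr4a and 4.92 for Xlr5a. Xlr5b had 119, 172 and 146 counts in Y48E and 0, 0 and 2 counts in E63R, a ratio of scaled counts of 229 with an exact 95% counting interval from 62.9 to 1893, and both E63R counts were in replicate 3. Copies in this family share much of their sequence, and 44.8% of the 50-base windows of Xlr3a and 72.1% of those of Xlr5b occur in other genes, so the split of reads among the copies is uncertain. Pnma5, a neighbour of Xlr3a named after its values were seen, had 55.4 CPM in Y48E and 13.2 CPM in E63R, with an adjusted p of 1.15e-08.

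The stretches before Xlr3a (chrX:73097096-73097345, minus strand) and Xlr3b (chrX:73191929-73192178, plus strand) are given in the same form to show how far the copies resemble each other in front of the gene.
Xlr3a: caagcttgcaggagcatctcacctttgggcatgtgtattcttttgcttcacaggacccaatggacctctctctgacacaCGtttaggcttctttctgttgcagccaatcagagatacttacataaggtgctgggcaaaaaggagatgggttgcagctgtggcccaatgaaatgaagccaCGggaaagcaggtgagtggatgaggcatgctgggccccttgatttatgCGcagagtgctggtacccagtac
Xlr3b: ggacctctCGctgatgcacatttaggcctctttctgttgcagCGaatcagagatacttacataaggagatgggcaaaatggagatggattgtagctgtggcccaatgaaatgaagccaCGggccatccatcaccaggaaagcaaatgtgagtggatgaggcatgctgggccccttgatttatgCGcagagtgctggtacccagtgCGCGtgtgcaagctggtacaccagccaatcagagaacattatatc
The longest run of bases that the 2 windows share was 58 of 250, and they held 3 and 6 CG, respectively. At most 3 CG were present before 10.8% of the 12440 tested genes with a listed promoter and at most 6 before 21.2%.

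Nxf3, an X-linked member of the nuclear RNA export factor family, had no count in the E63R line. There were 37, 28 and 26 counts of Nxf3 in the Y48E libraries and 0 in each E63R library. Against the same floor of 3 counts over the group, it was at least 31.7-fold higher in Y48E, with 3.35 CPM in Y48E and 9.53 CPM in the WT line. By a fixed limit of at most 3 counts in every library of one line and at least 1 CPM in every library of the other, 5 genes were on in Y48E alone (Nxf3, Xlr5b, Foxd1, Gm15510 and Gm16136) and 0 in E63R alone. Of these 5, Nxf3, Xlr5b and Gm16136 were called. Foxd1 had 3, 1 and 3 counts and Gm15510 had 3, 1 and 0 counts in the E63R libraries, so neither was silent there. Igf2, with 0 counts in Y48E, had 2.87, 2.82 and 0.343 CPM in E63R. It missed the limit for E63R alone only through E63R replicate 3.

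**Figure D2:**
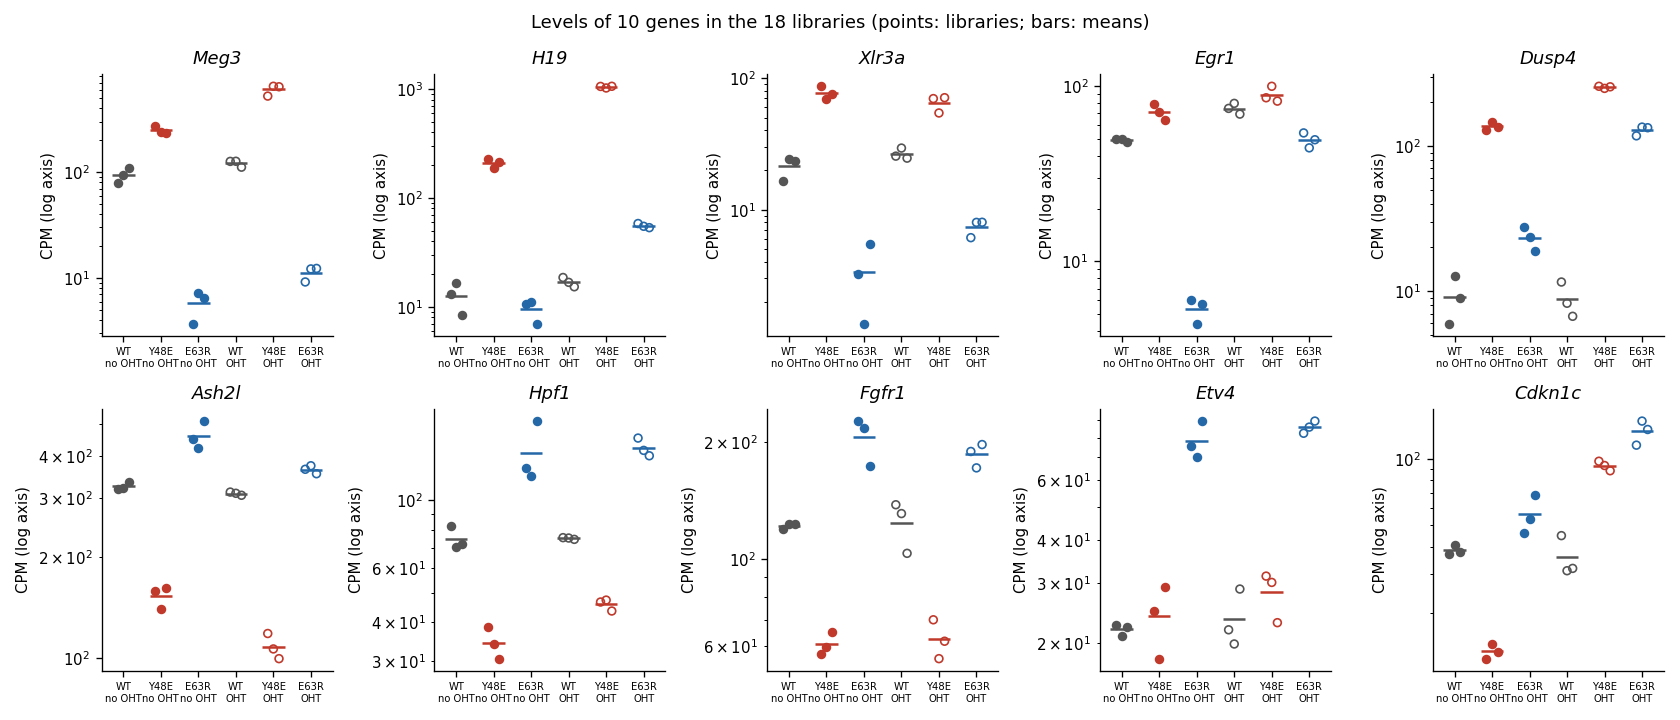
Level of 10 genes in the 18 libraries, in CPM on log axes. Points are libraries (filled without OHT, open with OHT) and bars are group means over 3 libraries. Meg3, H19, Xlr3a, Egr1 and Dusp4 are higher in untreated Y48E (red) than in untreated E63R (blue), and Ash2l, Hpf1, Fgfr1, Etv4 and Cdkn1c are lower.

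The Zscan4 genes of the 2-cell stage were mostly higher in Y48E. In ESC cultures a small share of cells passes through a state that expresses genes of the 2-cell embryo, of which the Zscan4 zinc finger family is the best known. Of 31 tested genes of the list, 9 were higher and 0 lower by edgeR, and 20 had an unadjusted p under 0.05. Over all 18791 tested genes, 3465 had an unadjusted edgeR p under 0.05. The list median was 0.91 against 0 over all tested genes, and 0.91 again without E63R replicate 3. The 9 were 7 Zscan4 copies and Usp17la and Usp17le, of a family of deubiquitinating enzymes. Zscan4f had 14.6, 11.8 and 17.02 CPM in Y48E and 3.23, 4.86 and 4.69 CPM in E63R, a log2 fold change of 1.78 ± 0.25 (SE) with an adjusted p of 7.36e-05. The log2 fold change was 1.54 for Zscan4e, 1.30 for Zscan4-ps2 and 1.61 for Usp17le. Summed over the 9 tested Zscan4 copies, the level was between 201.5 and 237 CPM in Y48E, between 81.9 and 110.9 CPM in E63R, and between 4.80 and 6.61 CPM in WT. Both mutant lines were thus above the WT libraries, and Y48E above E63R. Of the 50-base windows of Zscan4f, 86.8% occur in other genes, so single copies are uncertain.

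The window before Zscan4f (chr7:11397665-11397914, plus strand) is shown as the family's example. That before Zscan4c matched it at 99.6% of positions once the 2 were shifted against each other, so these 2 copies have nearly the same bases in front of them.
Zscan4f: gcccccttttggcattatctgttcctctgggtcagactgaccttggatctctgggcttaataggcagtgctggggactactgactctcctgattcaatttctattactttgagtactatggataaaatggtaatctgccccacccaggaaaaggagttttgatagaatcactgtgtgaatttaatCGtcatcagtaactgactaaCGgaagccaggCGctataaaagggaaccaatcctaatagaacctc
It held 3 CG.

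Genes of the FGF and ERK pathway moved in both directions. Fibroblast growth factor signalling through ERK primes ESCs for differentiation, and it induces both transcription factors and its own inhibitors. Of 22 tested genes of the list, 2 were higher in Y48E (Egr1 and Dusp4) and 3 lower (Fgfr1, Etv4 and Etv1), with a list median of -0.19 and 11 genes at an unadjusted p under 0.05. The shares over all tested genes were 0.426% higher and 0.548% lower, and 3465 of 18791 had an unadjusted edgeR p under 0.05. Egr1, an immediate early zinc finger transcription factor, had 79.3, 71.4 and 64.2 CPM in Y48E against 6.01, 4.41 and 5.72 CPM in E63R. The 3 WT libraries had 49.8, 50.3 and 48.3 CPM, so the E63R libraries stood below both other lines. The log2 fold change was 3.73 ± 0.15 (SE), with an adjusted p of 8.28e-14. Dusp4, a phosphatase that inactivates ERK, had 129, 146 and 135 CPM in Y48E, 27.5, 23.5 and 18.8 CPM in E63R and 9.18 CPM in the WT mean. Its log2 fold change was 2.55 ± 0.19 (SE), with an adjusted p of 3.47e-09. Etv4, an ETS factor downstream of FGF, had 24.7, 17.99 and 29.2 CPM in Y48E and 75.4, 70.3 and 89.4 CPM in E63R. The WT level of Etv4, 21.98 CPM, was close to that of Y48E, and the log2 fold change was -1.71 ± 0.17 (SE), with an adjusted p of 4.38e-07. The related factor Etv1 had 2.72 CPM in Y48E and 9.62 CPM in E63R. Fgfr1, the FGF receptor, lies in one of the chromosome 8 segments described below and had 57.1, 59.7 and 65.0 CPM in Y48E and 227, 217 and 174 CPM in E63R. Spry4 and Dusp6, feedback inhibitors named after their values were seen, did not pass. Spry4 had 17.96 CPM in Y48E and 32.9 CPM in E63R, a log2 fold change of -0.88, but was called without E63R replicate 3, at -1.07 with an adjusted p of 3.84e-04. Dusp6 had 18.2 and 25.3 CPM, respectively.

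Among the 18 tested genes of formative and primed pluripotency, Otx2 alone was called. This homeobox factor of the exit from naive pluripotency had 5.28, 8.31 and 7.75 CPM in Y48E and 1.57, 0.565 and 1.60 CPM in E63R. In WT it had 44.6, 46.2 and 50.4 CPM, so both mutant lines were far below the WT libraries, and the log2 fold change between them was 2.48 ± 0.36 (SE), with an adjusted p of 1.15e-04. In the naive pluripotency list 0 of 20 tested genes were called by edgeR and 0 by DESeq2, with 9 at an unadjusted p under 0.05 and a median of 0.13. The ESC identity list likewise had 0 of 14 by either tool, with 6 at an unadjusted p under 0.05 and a median of -0.20. Among all 18791 tested genes, 183 were called by edgeR and 270 by DESeq2, and 3465 had an unadjusted edgeR p under 0.05. At so low a share of calls, lists this short say little by holding none.

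Basement membrane genes of the primitive endoderm list were higher in Y48E. The chains of type IV collagen, Col4a1 and Col4a2, and the laminin chain Lama1 were the 3 called genes of 17 tested, and the list median was 0.48. Among all 18791 tested genes, 0.426% were called higher and 0.548% lower. Col4a1 had 164, 143 and 152 CPM in Y48E and 68.5, 86.0 and 45.3 CPM in E63R, and E63R replicate 3 was the lowest. The WT line had 146 CPM, near Y48E. Without E63R replicate 3, the log2 fold change of Col4a1 moved from 1.20 to 0.99, that of Col4a2 from 1.07 to 0.90 and that of Lama1 from 1.26 to 0.97, all under the 2-fold limit, with an adjusted p of 1.73e-07 or less. Gata6 and Gata4, transcription factors that define primitive endoderm, had at most 4.41 and 8.37 unscaled CPM in any of the 6 libraries, and neither was called.

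Other lists held 1 or 2 calls each, beside 0.426% of all tested genes called higher and 0.548% called lower. In the Nodal and mesendoderm list, 1 of 14 tested genes was lower, Lefty1, an inhibitor of Nodal, with 33.2 ± 1.76 CPM in Y48E and 74.0 ± 19.8 CPM in E63R. Its log2 fold change moved from -1.16 to -0.93 without E63R replicate 3. The trophoblast list had 1 higher gene, the transcription factor Sox21 (log2 fold change 1.38), and 1 lower gene, Phlda2, of 20 tested. Germline and meiosis genes had 2 higher of 32, Fkbp6 (1.43), which acts in meiosis, and the homeobox gene Rhox9 (1.22). Of 19 immediate early genes, Egr1 and the stress-responsive factor Atf3 (1.70) were higher. Of 43 replication-dependent histone genes, Hist3h2ba was higher (1.88, and 2.60 without E63R replicate 3). Without that library 3 histone genes were higher, and the list median moved from 0.45 to 0.84. In the MHC and interferon list, the antigen peptide transporter Tap2 (-1.63) and the antiviral membrane protein Ifitm3 (-1.19) were lower among 21. The p53 and CDK inhibitor list had 1 lower gene of 29, Cdkn1c, and the cholesterol synthesis list 1 of 25, Msmo1, a sterol oxidase in a chromosome 8 segment. Their list medians were 0.01 and 0.25, and Msmo1 moved from -1.05 to -0.87 without E63R replicate 3. Several of these calls missed the p limit when 1 library was left out, while the log2 fold changes stayed close to those with all libraries. Sox21 was between 1.21 and 1.36, with an adjusted p between 0.0206 and 0.0587, without Y48E replicate 1 or 2 or E63R replicate 1 or 2. Without Y48E replicate 1 or 3 or E63R replicate 1 or 2, Fkbp6 was between 1.23 and 1.47, with an adjusted p between 0.0155 and 0.0426, and Hist3h2ba was between 1.54 and 1.97, with an adjusted p between 0.0115 and 0.0412. Rhox9 was between 1.01 and 1.27, with an adjusted p between 0.0221 and 0.0458, without any 1 library other than E63R replicate 3. Tap2 was -1.60 and -1.30 without Y48E replicate 1 and 3, with adjusted p of 0.0305 and 0.0391. Ifitm3 was -1.21 and -1.08 without Y48E replicate 2 and 3, with adjusted p of 0.0130 and 0.0240, and -0.73 without E63R replicate 3. Lefty1 was between -1.19 and -1.12, with an adjusted p between 0.0120 and 0.0187, without any 1 of the Y48E libraries. Bdkrb2, the bradykinin B2 receptor, belonged to no list and had 11.9 ± 1.71 CPM in Y48E and 1.72 ± 1.28 CPM in E63R, a log2 fold change of 2.81 ± 0.34 (SE).

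In the other 23 of the 36 lists, 0 of 406 tested genes were called by edgeR, while 125 had an unadjusted p under 0.05 and 2 (Cdx1 and Usp9y) were called by DESeq2. Over all 18791 tested genes, 3465 had an unadjusted p under 0.05, and 270 were called by DESeq2. Without E63R replicate 3, 4 of these lists held calls, with 1 higher and 1 lower among smooth muscle and cytoskeletal genes, 1 lower among endothelial genes, and 1 higher each among amino acid response genes and metallothioneins and oxidative stress genes. Medians of these lists were between -0.33 (metallothioneins and oxidative stress, -0.06 without E63R replicate 3) and 0.43 (Hox genes). HDAC1/2 complex subunits were among them, with 47 tested, a median of -0.06, 10 at an unadjusted p under 0.05 and none called by DESeq2. The chromatin remodeller Chd4 of NuRD had 465 ± 8.48 CPM in Y48E and 546 ± 157 CPM in E63R, and the histone-binding subunit Rbbp4 had 532 ± 27.1 and 590.2 ± 139.97 CPM, respectively. The log2 fold change of Chd4 was -0.23 (edgeR adjusted p 0.372), and -0.44 without E63R replicate 3 (edgeR adjusted p 5.21e-06). The simple epithelial keratins Krt8 and Krt18 had log2 fold changes of -0.29 and -0.35, with adjusted p of 0.156 and 0.375. Without E63R replicate 3 these were -0.20 and 0.02, respectively. Ddit4, an inhibitor of mTOR signalling in the amino acid response list, was lower by less than the 2-fold limit, with 399 ± 4.95 CPM in Y48E and 617 ± 57.7 CPM in E63R and an adjusted p of 2.31e-04. Sfrp1, a secreted WNT antagonist, was higher by less than that limit, at 180.5 ± 3.41 against 119 ± 11.4 CPM, with an adjusted p of 2.13e-04.

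Most genes lower in Y48E lay in 4 segments of chromosome 8 (mm10; plot of chromosome 8 genes by their order). The segments ran from Tacc1 to Nudc-ps1 (chr8:25154552-29286981, 27 genes), from Aga to Fbxo8 (chr8:53511727-56593939, 6 genes), from Hpf1 to Naf1 (chr8:60890418-66890564, 13 genes) and from Mau2 to Upf1 (chr8:70016123-70353278, 14 genes). Their median log2 fold changes were -1.50, -1.53, -1.60 and -1.73, respectively. All 60 genes were below 0 because the rule required it, and 55 were called lower. The 593 other chromosome 8 genes of the same minimum level, which include those between the segments, had a median of -0.05, with 7 called lower and 4 higher. When genes below that minimum were counted too, 85 of the 86 tested genes inside the segments were below 0, and 57 were called lower. These 86 include the 60 genes that the rule picked. Leaving out E63R replicate 3 gave medians of -1.51, -1.47, -1.65 and -1.66, and the same rule then found 4 lower runs on chromosome 8 with 59 genes, all of them among the 60.

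Among the segment genes, Ash2l, a shared subunit of histone H3 lysine 4 methyltransferase complexes, had 159, 139.8 and 162 CPM in Y48E and 449, 422 and 509 CPM in E63R. Its log2 fold change was -1.58 ± 0.10 (SE), with an adjusted p of 1.76e-10, and its WT level of 325 CPM lay between the lines. Hpf1, the factor that directs PARP1 to serine residues, had 38.5, 33.9 and 30.5 CPM in Y48E and 127, 120.1 and 180.5 CPM in E63R, a log2 fold change of -2.05 ± 0.14 (SE). WT libraries had 74.8 CPM of Hpf1 in the mean, again between the groups, which did not overlap. The log2 fold change was -1.77 for the receptor Fgfr1, -1.93 for Fnta, the alpha subunit of farnesyltransferase, -1.89 for Erlin2, a protein of the endoplasmic reticulum membrane, -1.70 for Klhl2, a ubiquitin ligase adaptor, and -1.85 for the kinase gene Nek1. In the Mau2 to Upf1 segment it was -1.99 for the synaptic scaffold Homer3, -2.14 for Armc6 and -1.57 for Upf1, the helicase of nonsense-mediated decay. Homer3 shares 25.4% of its exon length with the opposite gene Ddx49. Borcs8 (-2.28), a lysosome positioning factor, and Ncan (-2.12), a brain proteoglycan, lie in the same segment but were under its level limit. Borcs8 was -1.83 and -2.46 without Y48E replicate 1 and 2, with adjusted p of 0.0317 and 0.0174. Ncan was -2.12, -1.78 and -1.90 without Y48E replicate 1, Y48E replicate 2 and E63R replicate 1, with adjusted p of 0.0232, 0.0334 and 0.0173. Lower genes outside the segments included Tusc3 (-1.88), a subunit of the oligosaccharyltransferase, on chromosome 8 and the tetraspanin Cd37 (-2.09) on chromosome 7.

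The window before Hpf1 (chr8:60890178-60890427, plus strand) is given as an example of a segment gene in the same form as above.
Hpf1: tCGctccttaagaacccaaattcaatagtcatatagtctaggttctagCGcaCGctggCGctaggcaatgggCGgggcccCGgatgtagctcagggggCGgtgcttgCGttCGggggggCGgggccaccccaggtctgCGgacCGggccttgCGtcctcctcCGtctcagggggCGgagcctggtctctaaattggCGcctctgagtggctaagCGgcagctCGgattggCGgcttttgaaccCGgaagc
It held 20 CG, as many as or more than 70.6% of the 12440 tested genes with a listed promoter. Of the 57 called genes inside the segments, 26 had a promoter in the table, with a median of 15.5 CG against 15 over those 12440 genes. The 49 higher genes that matched, of 80, had a median of 10 CG with quartiles of 6 and 22.

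**Figure D3:**
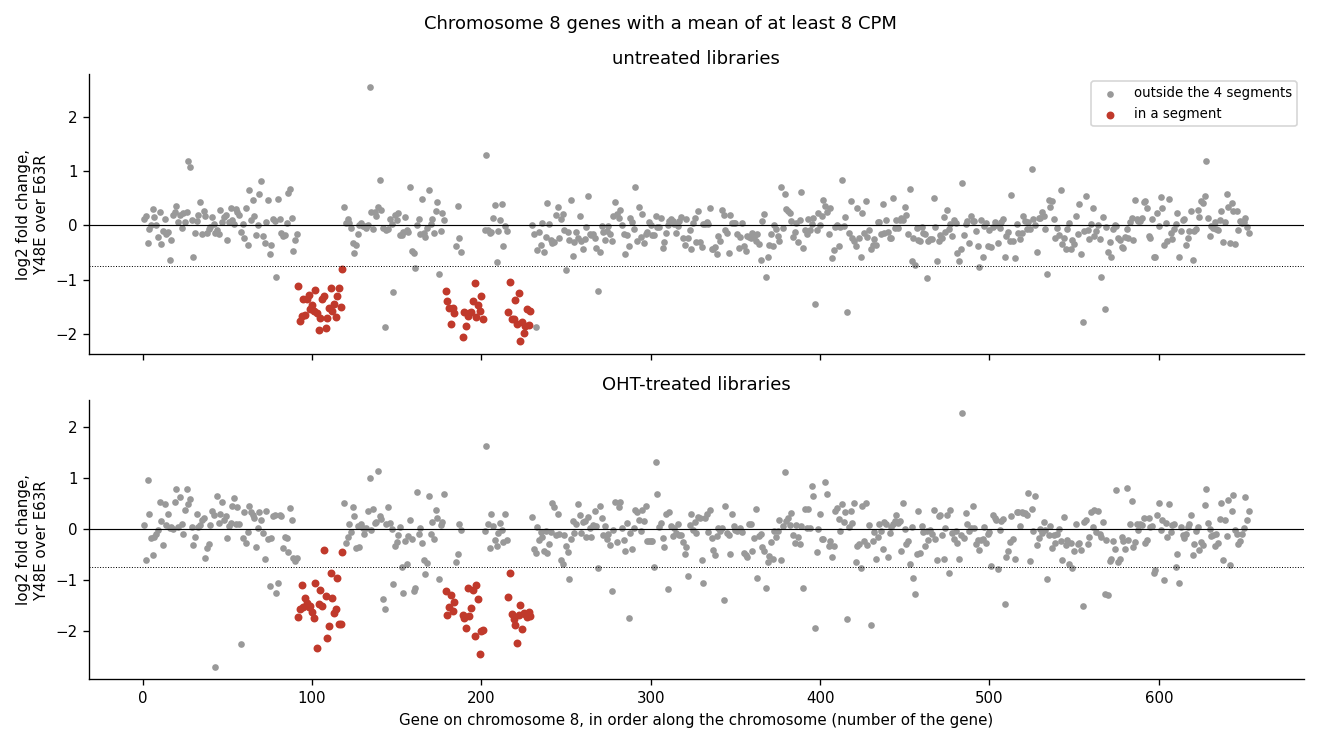
Log2 fold change of Y48E over E63R (vertical axis) for chromosome 8 genes with a mean of at least 8 CPM, in their order along the chromosome (horizontal axis), without OHT (upper panel) and with OHT (lower panel). Red points are the 60 genes of the 4 segments, all below 0 in both panels (in the upper panel by the rule that picked them). The dotted line marks -0.75, the limit of the rule.

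Set against the mean of the untreated WT libraries, the 60 segment genes lay on opposite sides in the mutant lines (plot of median levels by region). The median log2 difference from WT was between -1.06 and -0.98 in the 3 Y48E libraries and between 0.46 and 0.53 in the 3 E63R libraries. The other chromosome 8 genes had medians between 0.43 and 0.47 in Y48E and between 0.45 and 0.47 in E63R, so both mutant lines were above WT there and alike. Chromosome 6 showed the same, with 0.53 to 0.54 in Y48E and 0.50 to 0.55 in E63R over 528 genes. In E63R the segments were thus near the other chromosome 8 genes, and only in Y48E did they lie far below them. Pooled, the 9730 genes of the remaining chromosomes had medians within 0.01 of 0 in both lines, which does not show shifts of single chromosomes. Chromosome 8 received between 5.82% and 5.91% of counts in WT, between 6.34% and 6.44% in Y48E and between 6.68% and 6.82% in E63R. Chromosome 14, one of those pooled, received 3.25% to 3.27% in WT, 2.917% to 2.925% in Y48E and 2.785% to 2.893% in E63R. The number of DNA copies was not measured, and its part in these levels was not tested.

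**Figure D4:**
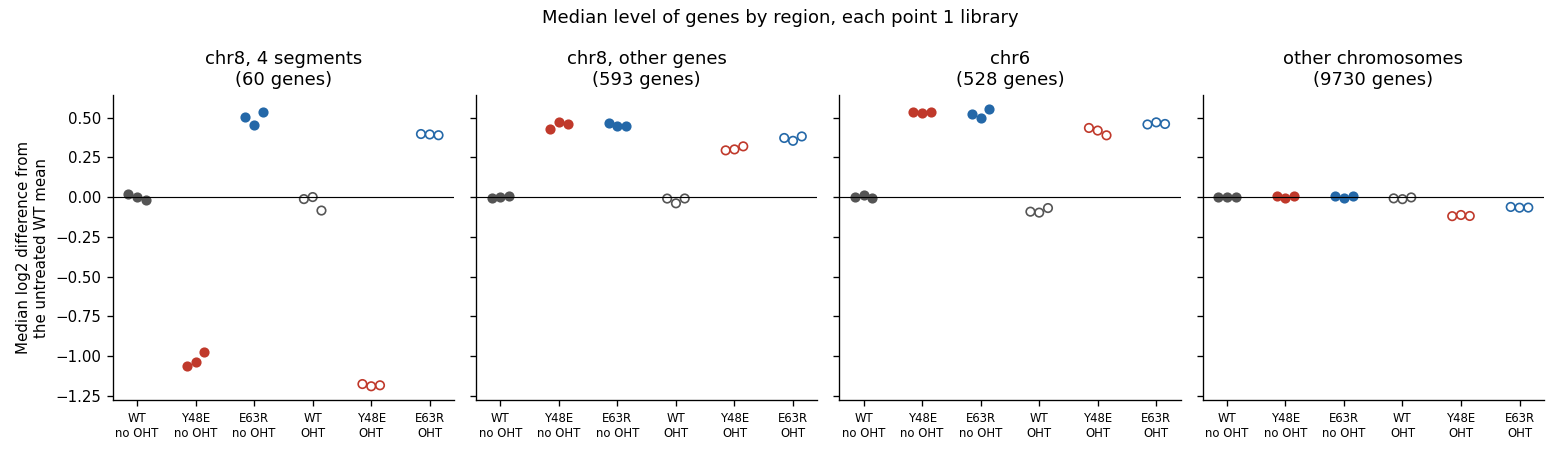
Median log2 difference from the untreated WT mean (vertical axis) over the genes of 4 regions, for each of the 18 libraries (points, filled without OHT, open with OHT; horizontal axis, line and treatment). In the chromosome 8 segments Y48E (red) lies at or below -0.98 and E63R (blue) at or above 0.39, while elsewhere on chromosome 8 and on chromosome 6 both lie above WT.

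The other run of lower genes was on chromosome 7 from Cdkn1c to Phlda2 (4 genes, median -1.62, and -1.35 without E63R replicate 3). The runs of higher genes were Dlk1 to Rian (4 genes, median 5.39), H19 with 2 gene models that overlap it (4.44), the Zscan4 cluster (8 genes, 1.22) and Pnma5 to Xlr3b on the X chromosome (5 genes, 4.68). Against WT, the Dlk1 to Rian run was at 1.35 in Y48E and -3.96 in E63R, and the Pnma5 to Xlr3b run at 1.85 and -2.87. The H19 run was at 4.04 in Y48E and -0.40 in E63R. Over all calls, the WT mean lay between the 2 mutant lines for 44 of the 80 higher genes and 74 of the 103 lower genes. It was nearer to Y48E for 57 of the 80 and for 34 of the 103. Of the 65 lower genes on chromosome 8, 53 had the WT level between the lines, and 21 of the 38 lower genes on other chromosomes did.

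The OHT-treated libraries of the same lines share no sample with the untreated ones and show whether a difference between the lines was seen again. There, 445 genes were higher in Y48E than in E63R (2.37% of the tested genes) and 399 lower (2.12%). Of the 80 genes higher without OHT, 43 (53.8%) were called higher with OHT, and they were 9.66% of the OHT list. Of the 103 lower genes, 72 (69.9%) were called lower again, which was 18.045% of the OHT list. The sign was kept in 71 of the 80 and 98 of the 103. By region, 61 of the 65 lower genes on chromosome 8 were called again, and 11 of the 38 elsewhere. Within the 60 segment genes, which a rule on the untreated values had picked, 55 were called lower with OHT and all 60 were below 0, with a median of -1.60. The rule for runs applied to the OHT values gave 29 runs, 22 of them lower. Of these lower runs, 5 were on chromosome 8, and their 58 genes were all among the 60. The medians against the untreated WT mean were between -1.19 and -1.18 in Y48E and between 0.39 and 0.40 in E63R, nearly those without OHT.

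The leading imprinted and X-linked genes that were higher in Y48E were called again with OHT, and the 3 imprinted genes that were lower were not. Igf2 had a log2 fold change of -2.54 with OHT and an adjusted p of 0.0118, and Phlda2 and Cdkn1c had -0.97 and -0.52. Meg3 had 602 CPM in OHT-treated Y48E and 11.2 CPM in OHT-treated E63R, a log2 fold change of 5.75, and Rian had 5.18 and H19 4.24 on the same scale. In the Xlr family 8 of 9 genes were called higher again, and Nxf3 had 16.5 CPM in Y48E and 2.39 CPM in E63R. Etv4 (-1.61) and Atf3 (1.53) also kept their calls. In the Zscan4 family the median log2 fold change was 0.57 with OHT against 1.24 without, and Zscan4f, at 0.89, was under the 2-fold limit. The summed level of the family was between 448 and 481 CPM in OHT-treated Y48E and between 293 and 319.6 CPM in OHT-treated E63R. The difference between lines itself differed between treatments, by the interaction term, for 246 genes (1.31% of the tested genes). Among them were 15 of the 80 higher and 5 of the 103 lower genes. The interaction term contains the untreated values that picked those 80 and 103 genes, so their shares cannot be compared with 1.31%. With OHT, Egr1 had 89.4 CPM in Y48E and 49.4 CPM in E63R, a log2 fold change of 0.86 against 3.73 without. Otx2 had 5.85 CPM in Y48E and 7.04 CPM in E63R with OHT.

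**Figure D5:**
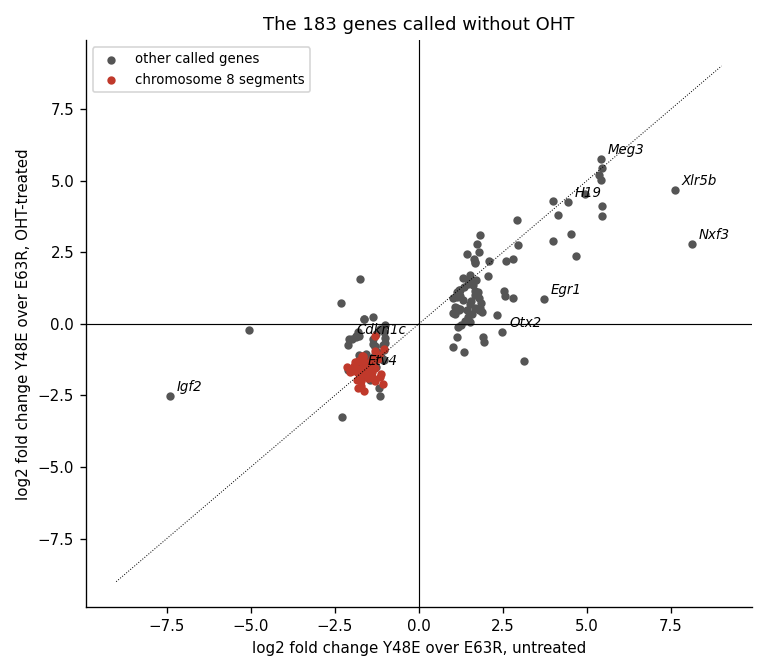
Log2 fold change of Y48E over E63R without OHT (horizontal axis) and with OHT (vertical axis) for the 183 genes called without OHT. Red points are the 55 called genes of the chromosome 8 segments, most of which lie near the dotted line of equal change, and Egr1 and Otx2 lie far below it.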

How the data were processed

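Per the labels, libraries of total RNA were made with the NEB Next Ultra kit. The submitters' processing notes name HISAT2 2.1.0, SAMtools 1.9, HTSeq and the build mm10; the annotation and strand setting are not given in the sources used here. The authors deposited raw counts per gene symbol, and 59.4% to 60.3% of entries in the 6 libraries named no gene and were left out. Genes were filtered by filterByExpr and scaled with TMM factors. The quasi-likelihood test of edgeR 4.0.16 (R 4.3.3) held all 18 libraries, with a mean per group and Benjamini-Hochberg adjustment over the tested genes. Calls used the study's limits, that is, adjusted p below 0.01 with the fitted log2 difference past 1. Positions were from GENCODE M21 (98.4% of tested genes had 1 position), and CPM used the TMM factors unless called unscaled. Members and gene lists were chosen with earlier results of these data known. Named genes were Hdac1, Hdac2, ESC markers, the 12 largest changes and 5 smallest p in each direction, and up to 4 called genes per list (otherwise up to 2 of the most abundant), among calls of at least 5 CPM with groups that did not overlap, without predicted models. The scripts were tested on simulated data. Intervals and floors cover counting error only. DESeq2 1.42.0 was an alternative. One gene that the naming rule selects is not reported here.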

Additional observations from a re-analysis of the deposited data

Results flagged for a closer look

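For 16 named genes the difference between Y48E and E63R differed between the treatments by the interaction term (edgeR, adjusted p below 0.01, over 2-fold). Values are the log2 difference between the lines with OHT minus that without. It was negative for 5 genes called higher in untreated Y48E, the transcription factors Egr1 (-2.87) and Otx2 (-2.76), Xlr3b (-2.32), the ERK phosphatase Dusp4 (-1.57) and the laminin chain Lama1 (-1.31). It was also negative for the WNT antagonist Sfrp1 (-1.07), which was under the 2-fold limit without OHT. It was positive for Cdkn1c (1.55), called lower in untreated Y48E, and negative for Msmo1 (-1.04), a chromosome 8 segment gene whose log2 fold change was -1.05 without OHT and -2.10 with it. The calls rest on untreated values that the interaction term also contains, which favours the opposite sign, so these signs are only a description.

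The other 8 genes were not called without OHT. The keratins Krt8 (2.01) and Krt18 (2.27) were called higher in Y48E with OHT. Esrrb (-1.24), a factor of the pluripotency network, Tet1 (-1.64), which oxidises methylated cytosine, and Phc1 (-1.39), a Polycomb subunit, were called lower in Y48E with OHT. Nanog (-1.07), the adhesion molecule Pecam1 (-1.22) and the lysosomal protein Cd68 (-1.50) were within the 2-fold limit in both treatments. Groups of 3 libraries were too small for a test of single outlying libraries.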

How the results depend on the processing

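The counts of higher and lower genes (80 and 103) and of calls seen again with OHT (115) stayed within 1.5 times under other scaling factors (73, 109 and 113), without a filter (119, 145 and 142), by DESeq2 (120, 150 and 149) and with the trend over exon length removed (85, 114 and 125), the last chosen after seeing the data. A test against a 2-fold change (glmTreat) gave 19 higher, 19 lower and 26 seen again. Fitting only the 6 libraries gave 17, 30 and 43, and the cause was not tested. An adjusted p under 0.05 gave 138 higher and 156 lower genes. Leaving out 1 library at a time gave 63 to 121 higher genes, 85 to 131 lower genes and 96 to 143 seen again; the 121 came without E63R replicate 3. Of 97 named genes, 47 were called, and none of these changed direction under any of the 15 alternatives, while 25 lost the call under glmTreat and 26 with only the 6 libraries. Of the 50 not called, 17 changed sign in at least 1 alternative, 10 of them without E63R replicate 3, among which Dppa5a went from -0.23 to 0.27 (adjusted p 0.00116). Without E63R replicate 3, Col4a1, Col4a2, Lama1, Lefty1, Ifitm3, Phlda2 and Msmo1 lost theirs. At 9075739 to 11280252 counts per library, all but large differences in genes near 1 CPM may have been missed.

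Same-numbered libraries had correlations of their deviations from the group means of -0.14, 0.04 and -0.12. These deviations include the trend of E63R replicate 3 over exon length, so they cannot decide whether the numbers pair the samples. With the replicate block the counts were 70, 101 and 108 over all 18 libraries, and 14, 13 and 24 with only the 6 libraries.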
